A study of Drosophila pseudoobscura and Drosophila ananassae and Drosophila yakuba with 13 samples.

Results

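The genes msl-1 and Pof, whose products act on whole chromosomes in Drosophila, were followed in testis and ovary. Members were the rows of the authors' tables whose symbol is msl-1 or Pof. They numbered 3 of 23522 rows, with both genes among the 11576 of D. ananassae and msl-1 alone among the 11946 of D. pseudoobscura. No row of D. pseudoobscura carries the symbol Pof, and that gene was not analysed there.

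The series used RNA sequencing of gonads, read as single ends of 50 bases, to look for sex-biased genes. All flies were wild-type, virgin and Wolbachia-free adults aged 6 to 10 days, and the ducts had been trimmed from the gonads before polyadenylated RNA was taken. D. ananassae, stock 14024-0371.13 grown at 25 °C, gave 2 testis and 2 ovary libraries, and D. pseudoobscura, stock 14011-0121.94 grown at 20 °C, gave 2 testis and 3 ovary libraries. D. yakuba, strain CSN, had 1 testis and 3 ovary libraries and is left aside. Each species was represented by 1 stock at 1 temperature, so species, stock and temperature cannot be told apart. Nothing in the labels says that libraries of a group came from separate cultures, so p-values may measure technical spread.

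In D. melanogaster the male-specific lethal (MSL) complex binds the single X of males and raises its transcription. MSL1 is the scaffold on which MSL2, MSL3 and the acetyltransferase MOF assemble, the helicase MLE joins with the roX RNAs, and females lack the complex because Sxl blocks translation of msl-2. The complex is known from somatic cells, and in D. melanogaster it has not been found to coat the X of male germ cells. POF is an RNA-binding protein that coats the fourth chromosome of D. melanogaster in both sexes. In D. ananassae POF has been described on the X of males, together with the MSL proteins. D. pseudoobscura carries an X with an added arm, formerly an autosome, that is also dosage compensated.

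The tables hold 1 log2 fold change, 1 log2 average and 1 likelihood-ratio test per gene, with no values per library. No spread between replicates could therefore be computed, and the depth of each library is unknown. A positive fold is read as higher in testis. No header states this direction. It rests on the title, which names testis before ovary, and on genes whose gonad expression is well known. As the only error available, an approximate standard error was derived from each fold and its likelihood-ratio statistic. For folds with almost no reads in 1 tissue the likelihood is not symmetric, so the symmetric intervals given here are rough for large folds. In whole gonads, fewer cells of a type and less RNA per cell cannot be told apart, and RNA does not give the amount of protein.

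The 2 genes stood on opposite sides in D. ananassae. The scaffold gene msl-1 was lower in testis than in ovary. Its log2 fold change was -6.86 in the authors' deposited table, about 116-fold lower in testis, and the approximate standard error was 0.34. Pof was higher in testis, at 7.70 or 208-fold in the authors' deposited table, with an approximate standard error of 0.34. In D. pseudoobscura msl-1 was again lower in testis, by less, at -1.59 or 3.01-fold lower in the authors' deposited table, with an approximate standard error of 0.64. All 3 values had an adjusted p under 0.05 in the authors' edgeR test, the threshold used here. A call by itself was common, as only 1686 of 11576 genes in D. ananassae and 3137 of 11946 in D. pseudoobscura were not called. The call of msl-1 in D. pseudoobscura was lost relative to the median gene, at -0.74, on a scale of equal tissue totals, at -0.80, and under Bonferroni adjustment, where the adjusted p from the authors' edgeR test was 1.

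**Figure D1:**
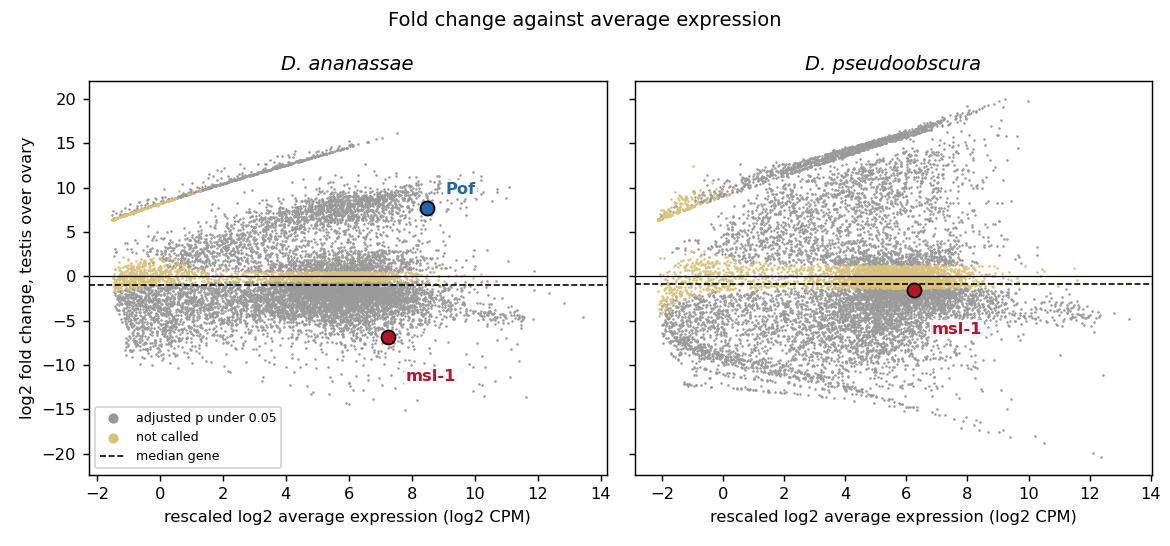
Log2 fold change of testis over ovary (vertical) against log2 average expression rescaled to a sum of 1000000 per table (horizontal), 1 point per gene, for D. ananassae on the left and D. pseudoobscura on the right. Pof lies at 7.70 among genes of large testis bias and msl-1 at -6.86 in D. ananassae, while msl-1 of D. pseudoobscura, at -1.59, lies beside the band of genes that were not called.

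For msl-1 of D. ananassae the fold of -6.86 in the authors' deposited table carried an adjusted p of 1.27e-91 by edgeR's likelihood-ratio test. Ovary bias by itself was common, since 53.8% of genes in this table were called higher in ovary. The size of the fold was less common. Of the 6226 genes called higher in ovary, 340 (5.46%) had a larger fold than msl-1, and by the likelihood-ratio statistic msl-1 ranked 131 among them. The approximate 95% interval of its fold was -7.52 to -6.20. The median gene of the table stood at -0.93, and relative to it the fold of msl-1 was -5.93, or 61.2-fold lower in testis.

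Levels in each gonad can be worked out from the fold and the average, if the average is taken as the mean over libraries. For msl-1 of D. ananassae they were 2.60 in testis and 301 in ovary, in CPM, that is, counts scaled to a sum of 1000000. These implied levels have no error of their own. Their sums over all genes were unequal, at 735474 in testis and 1264526 in ovary, so the totals of the gonads are not on 1 scale. Per 1000000 of each tissue's own total, msl-1 stood at 3.53 in testis and 238 in ovary. The gene was low in testis on either scale. Among 1276 genes of similar average the lowest implied testis level was 0.015 CPM, and 38 (2.98%) had a lower fold than msl-1.

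Pof had the second highest fold of the 59 genes of D. ananassae named by symbol, small RNA genes left aside, behind the homeobox gene B-H1 at 8.16 in the authors' deposited table. Its fold of 7.70 in the authors' deposited table carried an adjusted p of 1.22e-109 by edgeR's likelihood-ratio test. For comparison, 31.7% of the genes of D. ananassae were called higher in testis. Among those 3664 genes the fold of Pof was not extreme, as 1174 (32.0%) had a larger one. By the likelihood-ratio statistic, which also grows with the number of reads, Pof ranked 88 among them. Its approximate 95% interval was 7.02 to 8.37, and relative to the median gene its fold was 8.62, or 394-fold higher in testis.

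The implied level of Pof was 715 CPM in testis and 3.45 CPM in ovary. Per 1000000 of each tissue's total it was 973 in testis and 2.73 in ovary. Among 405 genes of similar average the lowest implied ovary level was 0.23 CPM, and 60 (14.8%) had a higher fold than Pof. The fold of Pof thus did not sit on the upper edge of the plot of fold against average, where genes with nearly no ovary signal lie.

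**Figure D2:**
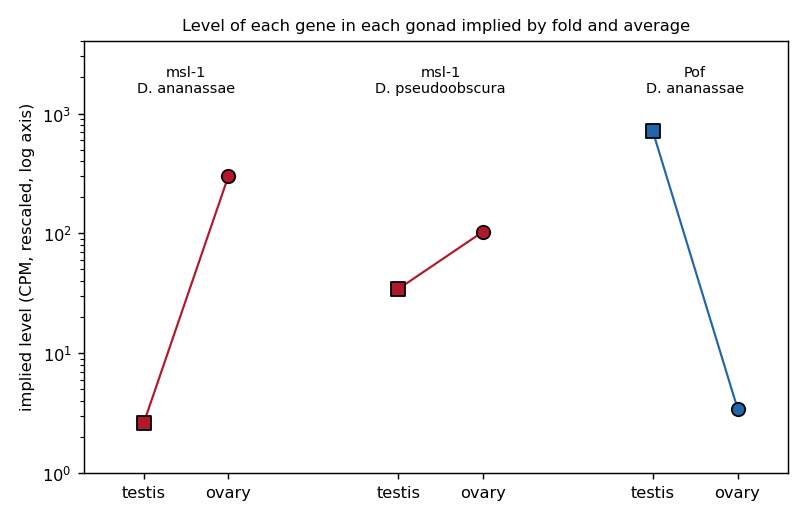
Implied level in testis (squares) and in ovary (circles) for msl-1 in both species and for Pof in D. ananassae, in rescaled CPM on a log axis; the tables give no error for these levels. For msl-1 the levels were 2.60 in testis and 301 in ovary of D. ananassae and 34.3 in testis and 103 in ovary of D. pseudoobscura, and for Pof they were 715 in testis and 3.45 in ovary.

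In D. pseudoobscura the implied level of msl-1 was 34.3 CPM in testis and 103 CPM in ovary, and per 1000000 of each tissue's total it was 49.3 in testis and 85.8 in ovary. The fold of -1.59 in the authors' deposited table carried an adjusted p of 0.0177 by edgeR's likelihood-ratio test. Here 44.1% of genes were called higher in ovary. Of those 5269 genes, 4947 (93.9%) had a larger fold than msl-1, and 354 (6.72%) had a larger p-value. The approximate 95% interval was -2.84 to -0.35. The median gene stood at -0.85. Relative to it the fold of msl-1 was -0.74, or 1.68-fold lower in testis, and the approximate 95% interval, -1.99 to 0.50, spanned 0. With folds scaled so that both tissues have the same implied total, the value was -0.80 (-2.04 to 0.45). Whether the interval of msl-1 in this species spanned 0 thus depended on where 0 is placed. The normalization behind the deposited folds is not given in the sources used here.

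**Figure D3:**
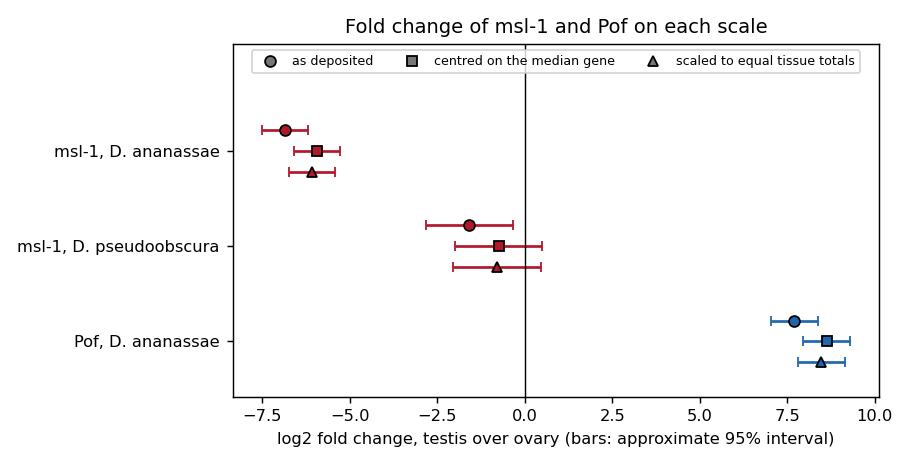
Log2 fold change of testis over ovary for each gene and species as deposited (circles), centred on the median gene (squares) and scaled to equal implied totals of the tissues (triangles), with bars for the approximate 95% interval. The intervals of msl-1 and Pof in D. ananassae lie away from 0 on all 3 scales, and that of msl-1 in D. pseudoobscura spans 0 when centred, at -0.74, and when scaled to equal totals, at -0.80.

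Genes with an average within 0.5 log2 units of each member show what fold the tables could call at that level. Around msl-1 of D. ananassae there were 1276 such genes, of which 57.1% were called higher in ovary and 38 (2.98%) had a lower fold than msl-1. Their median fold was -1.19, and the smallest absolute fold that was called was 0.53. Around msl-1 of D. pseudoobscura there were 2076 genes, with 40.3% called higher in ovary, a median fold of -0.80 and 723 genes (34.8%) with a lower fold than msl-1. There the smallest absolute fold called was 1.24 and the largest not called was 1.31, so that msl-1, at -1.59, was close to the limit. The median approximate standard error was 0.27 around msl-1 in D. ananassae and 0.64 around msl-1 in D. pseudoobscura.

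Around Pof the folds of D. ananassae fell into a large body of genes below 0 and a smaller group far above it. Of 405 genes there, 33.6% were called higher in testis, and 81 (20.0%) had a fold of at least 5 on the log2 scale. The median of these 81 was 9.08, and 60 of them exceeded Pof. Pof was therefore within the group of strongly testis-biased genes of its own average, on its lower side.

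**Figure D4:**
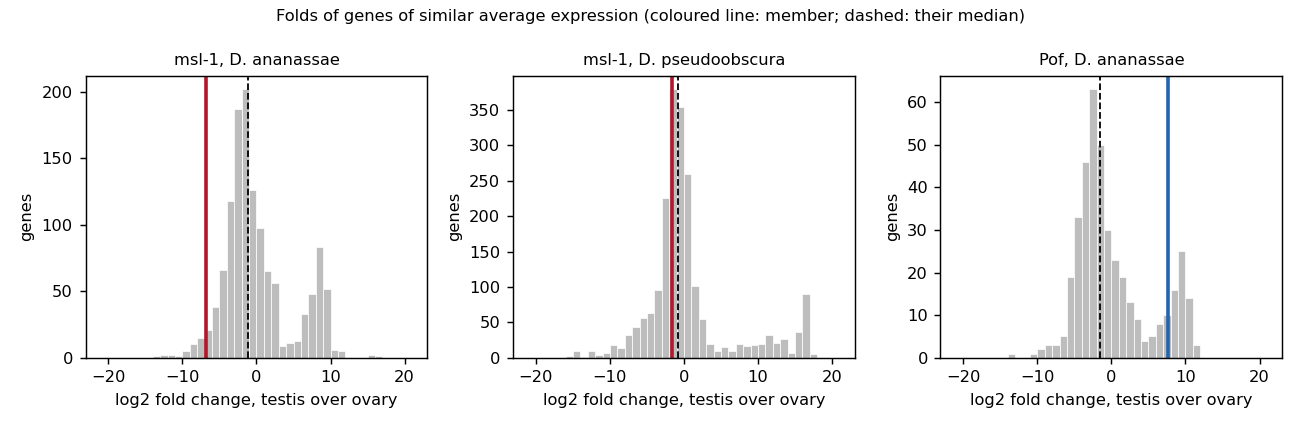
Number of genes (vertical) by log2 fold change of testis over ovary (horizontal) among genes within 0.5 log2 units of the average of msl-1 in D. ananassae, msl-1 in D. pseudoobscura and Pof in D. ananassae, with the member as a coloured line and the median as a dashed line. Fewer genes lie beyond msl-1 in D. ananassae (38 of 1276) than in D. pseudoobscura (723 of 2076), and Pof lies inside the right-hand group.

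The fold of msl-1 was lower in D. ananassae than in D. pseudoobscura by 5.27 on the log2 scale, with an approximate standard error of 0.72. Relative to the median gene of each table the fold was -5.93 in D. ananassae against -0.74 in D. pseudoobscura. The difference was not tested, because the tables were normalized separately and the error is approximate. Folds were also spread unequally. Those beyond 5 on the log2 scale toward ovary made up 8.09% of genes in D. ananassae and 18.3% in D. pseudoobscura. Both tables named 24 genes by the same symbol, small RNA genes left aside, and none of the others had a difference as far on the side of D. ananassae as msl-1. Among the 15 called higher in ovary in both species, 7 had the lower fold in D. ananassae and 8 in D. pseudoobscura, so msl-1 stood at the end of a range from -5.27 to 7.12.

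**Figure D5:**
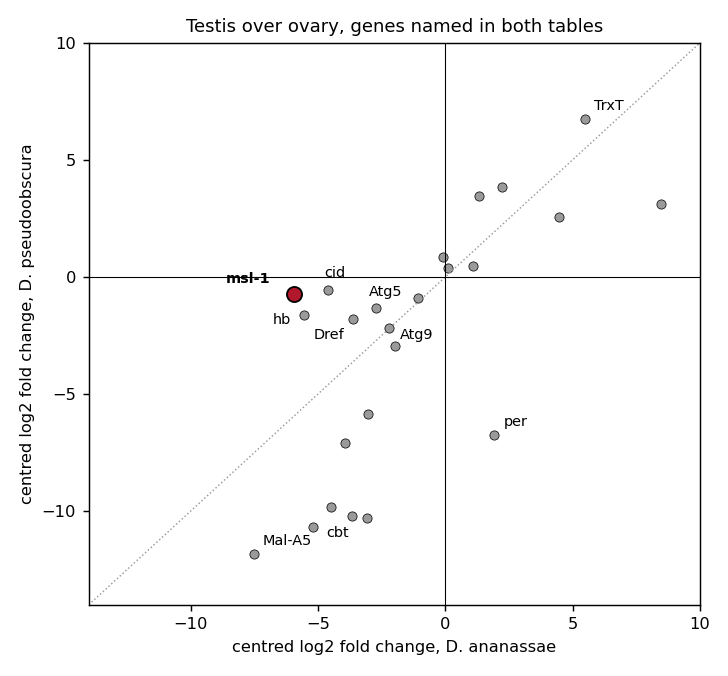
Log2 fold change of testis over ovary centred on the median gene in D. ananassae (horizontal) and in D. pseudoobscura (vertical) for the 24 genes named in both tables, with equality as a dotted line. Msl-1, at -5.93 and -0.74, lies farthest above the line, with hb and cid nearest to it.

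The genes nearest to msl-1 in this plane, by the distance between centred folds in the 2 species, were hb at 0.95, cid at 1.35, Dref at 2.56, Atg5 at 3.26 and Atg9 at 3.97. The gap transcription factor gene hb stood at -6.48 in D. ananassae against -2.46 in D. pseudoobscura, from the authors' deposited tables. The centromeric histone gene cid stood at -5.53 in D. ananassae against -1.39 in D. pseudoobscura, from the authors' deposited tables. Dref, a transcription factor of replication genes, stood at -4.53 in D. ananassae against -2.65 in D. pseudoobscura, from the authors' deposited tables. The autophagy gene Atg5 stood at -3.66 in D. ananassae against -2.19 in D. pseudoobscura, from the authors' deposited tables. Atg9, of the same pathway, was nearly level, with -3.15 in D. ananassae against -3.02 in D. pseudoobscura, from the authors' deposited tables. By fold and average together, the nearest named genes to msl-1 in D. ananassae were CBP at -6.70, hb at -6.48 and the maltase gene Mal-A5 at -8.45 in the authors' deposited table. The nearest to Pof was the testis thioredoxin gene TrxT at 4.56, at a distance of 3.69, followed by Om(1E) at 4.80 and the amylase gene Amy4N at 6.30 in the authors' deposited table, so no named gene lay close to it.

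Genes of the MSL complex, its regulators, the fourth chromosome and heterochromatin could be followed only in small part, since most genes carry identifiers without a symbol. Of the 7 genes of the MSL complex 1, msl-1 itself, was named in each table. Of 8 regulators and recruiters of the complex, among them Sxl and Clamp, which brings the complex to the X, none was named in either. Of 13 symbols listed for the fourth chromosome and heterochromatin, a list not limited to partners of POF, D. ananassae had 3. Pof was called higher in testis, and cid and the piRNA-locus gene rhi, at -2.25 in the authors' deposited table, were called higher in ovary, as were 53.8% of all genes of that species. D. pseudoobscura had 6, with a median of -2.11 against -0.85 over all genes. Of these, 5 were called higher in ovary, against 44.1% of all genes, and 1, HP1Kcd, was called higher in testis at 5.29 in the authors' deposited table, against 29.6% of all genes. HP1Kcd was low, with implied levels of 5.66 CPM in testis and 0.14 CPM in ovary and an approximate standard error of 1.30. The largest fold of the 6 was that of HP1Da, at -13.8 in the authors' deposited table. The heterochromatin protein gene HP1A, at -1.36 in the authors' deposited table with an adjusted p of 0.0416 in edgeR's likelihood-ratio test, lay close to msl-1 of that species and, like it, was small relative to the median gene, at -0.51.

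Gonad markers followed the tissue labels. In D. ananassae 3 of 10 ovary germline genes were named and were called higher in ovary, with summed implied levels of 44.2 CPM in testis and 734 CPM in ovary, and in D. pseudoobscura 4 of 10, with 46.4 CPM in testis and 1420.2 CPM in ovary. Over all genes, the shares called higher in ovary were 53.8% in D. ananassae and 44.1% in D. pseudoobscura. Of 8 testis markers only TrxT was named, and it was called higher in testis in both species. Over all genes, the shares called higher in testis were 31.7% in D. ananassae and 29.6% in D. pseudoobscura. TrxT had 180 CPM in testis and 7.67 CPM in ovary of D. ananassae, and 205.1 CPM in testis and 3.46 CPM in ovary of D. pseudoobscura. These markers are among the genes from which the direction was read, so they are no separate check of it. Genes of other tissues moved with the contrast in D. pseudoobscura. There 5 of 6 muscle genes were named, and all 5 were called higher in ovary, against 44.1% of all genes. Their summed levels were 98.5 CPM in testis and 1357 CPM in ovary, of which the tropomyosin gene Tm1 made up 96.6 CPM in testis and 772 CPM in ovary. Tm1 had a fold of -3.0, while TpnT, Tm2, TpnI and Mlc1 lay between -9.26 and -7.35 in the authors' deposited table. All 5 of 5 accessory gland genes were called higher in testis, against 29.6% of all genes, with summed levels of 8.81 CPM in testis and 0.059 CPM in ovary. Each was low, with rescaled log2 averages from -0.96 to -0.21 and approximate standard errors from 1.05 to 2.56. Of 4 gut genes listed, Mal-A5 was named in D. ananassae and Mal-A5 and Mal-A1 in D. pseudoobscura. They were called higher in ovary, against 53.8% and 44.1% of all genes. Summed levels were 0.73 CPM in testis and 257 CPM in ovary in D. ananassae, and 0.69 CPM in testis and 589 CPM in ovary in D. pseudoobscura. Outside the list, amylase and maltase genes went both ways. Amy4N was called higher in testis in D. ananassae, at 6.30, and Mal-B1 in D. pseudoobscura, at 2.28, in the authors' deposited tables. Mal-B2 and Mal-A6 were called higher in ovary in both species. No fat body marker was named in either table, nor any muscle or accessory gland marker in D. ananassae. Their part in the folds of msl-1 and Pof was not tested.

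In the RefSeq annotation of D. pseudoobscura, assembly UCI_Dpse_MV25, msl-1 overlaps 1 neighbouring gene, LOC4817340, and lies next to tos. The labels do not say that counting used strand, so reads from an overlap could not be assigned to either gene with certainty. Whether the annotation used by the authors has this overlap is not known.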

How the data were processed

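Testis and ovary RNA was compared within D. ananassae and D. pseudoobscura. Per the submitters' processing notes, the tools were edgeR, Bowtie2 2.1.0, Cufflinks 2.1.0, HTSeq 0.5.4p3 and Cuffdiff 2.1.0. Neither the edgeR version nor the genome build, filter or normalization is given in the sources used here. Each gene has, per the file headers, a log2 fold change, a log2 average, a likelihood-ratio score, a false discovery rate and a p-value, all deposited by the authors. The false discovery rate is called adjusted p here. The deposited p-value equalled the chi-square tail of the score with 1 degree of freedom within 0.49%, and the false discovery rate equalled the Benjamini-Hochberg value within 0.82%.

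The linear averages summed to 6.69e+06 times 1000000 in D. ananassae and 8.09e+06 times 1000000 in D. pseudoobscura and were rescaled to 1000000 per species. The approximate standard error is the absolute fold divided by the square root of the likelihood-ratio score. It and the implied tissue levels were computed with Python 3.11.15 (pandas 2.3.3, numpy 2.4.6, scipy 1.17.1), with figures from matplotlib 3.10.9. The error was tried on simulated counts with a fixed dispersion, the same for both species and not estimated from these data. That trial therefore does not show how accurate the error is here. The implied levels were only recomputed from themselves, which checks the arithmetic and not whether the average is a mean over libraries. No p-value was computed for the members beyond the authors' own. The Bonferroni adjustment, and the Benjamini-Hochberg adjustment after a minimum average, were computed here from the authors' p-values. Alternatives were centring, scaling to equal totals, Bonferroni adjustment, a minimum fold and a minimum average. Named genes were the members, the measured genes of the lists and the nearest genes by fold. B-H1 was named after its value was seen, and Mal-B1, Mal-B2 and Mal-A6 were also named from outside these sets. Members and lists were chosen with earlier results of these data known. Of the 11946 names of D. pseudoobscura genes, 143 matched a RefSeq symbol, so genes were matched by symbol alone.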

Additional observations from a re-analysis of the deposited data

How the results depend on the processing

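Over 49 alternatives, 40 kept the direction and the side of the threshold or stayed within the limits set for a value, and none reversed a direction. Some of the 40 could not have moved, so the count is no measure of stability. With 2 testis and 2 ovary libraries, the implied levels of D. ananassae are the same whether averaged over libraries or over tissues. The alternatives for msl-1 and Pof in D. ananassae all kept the call, with folds of -6.86 to -5.93 and 7.70 to 8.62. For msl-1 in D. pseudoobscura the call was lost under Bonferroni adjustment, with the fold still -1.59 (adjusted p = 1, computed here from the authors' edgeR p-value). Its interval spanned 0 at -0.74 relative to the median gene, where the fold was also under the minimum of 2-fold. The same held for the interval at -0.80 when scaled to equal tissue totals, a scale chosen after seeing the data. With a minimum average of 0 or 5 the adjusted p of msl-1 in D. pseudoobscura, recomputed here from the authors' edgeR p-values, was 0.0174 or 0.0196. Genes called fell in number with a minimum average of 5, to 1858 higher in testis and 3328 higher in ovary in D. ananassae and to 1373 higher in testis and 2464 higher in ovary in D. pseudoobscura, since fewer genes were tested. Under Bonferroni adjustment 3279 were called higher in ovary in D. pseudoobscura. No paired analysis was possible because the tables hold no values per library, which also means that no replicate was left out. Depth per library is unknown.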
